A study of Mus musculus with 6 samples.

Results

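The clustered histone genes are the genes whose symbols begin with Hist1h, Hist2h, Hist3h or Hist4h, and 69 of the 24930 rows of the deposited expression table matched that pattern. They comprised 6 genes of the linker histone H1, 19 of H2A, 19 of H2B, 12 of H3 and 13 of H4. Of them, 55 lie on mouse chromosome 13 (the Hist1 cluster), 10 on chromosome 3 (Hist2), 3 on chromosome 11 (Hist3) and 1 on chromosome 6 (Hist4). The set was picked because Hist1h4i, a gene for histone H4, was higher in every mutant library. The differences between mutant and control libraries are therefore given for these genes as descriptions, without p-values.

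The libraries were made from poly-T selected RNA of primary crypt epithelium of the mouse intestine. The 3 mutant libraries are labelled β-catenin GOF/+ and came from crypts carrying a single gain-of-function allele of the β-catenin gene, 4 days after induction. Their table columns are named exonhet, read here as the heterozygous exon 3 allele. The 3 other libraries are labelled control and are also of day 4. The sources used here do not give the genotype of the controls, the driver and agent of induction, or the strain, age and number of animals. Nor do they say whether replicate libraries are separate animals, and p-values then cover only the spread among these libraries, which may be technical.

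Histones package DNA into nucleosomes: a pair each of H2A, H2B, H3 and H4 forms the core, and H1 binds the linker DNA. The clustered genes are transcribed mainly in S phase, and their mRNAs typically end in a stem-loop bound by SLBP in place of a poly(A) tail. Poly-T selection therefore recovers such mRNAs poorly, although some clustered genes also give longer, polyadenylated transcripts, known from differentiated cells. Many histone variant genes outside the clusters, such as H2afz and H3f3a, make ordinary polyadenylated mRNA.

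Values are normalized abundances per gene, called units here, with library totals from 645225 to 1268771 units. The relative number of reads per unit, set to 1 in control replicate 1, was lowest in mutant replicate 3 (0.886) and highest in control replicate 3 (1.42). Epithelial markers (Epcam, keratins, Cdh1, Vil1 and others) summed to 4680 to 7111 units in every library. Mutant replicate 3 stood apart, with the lowest mean score of stem cell markers (-1.48 on the log2 scale relative to the control mean, against -0.40 to 0.31 in the other libraries) and the highest of immune markers (1.12, against -0.49 to 0.43). Of 14 stromal markers, such as collagens and Dcn, 7 reached a mean of 1 unit, all 7 of these had the higher mean in the mutants, and 0 of the 14 were at 0 in every library. The 14 summed to 7.19 to 12.1 units in the controls and 23.3 to 54.3 units in the mutants, without overlap. Hist1h4i and the Hist2h2aa genes, described further on, were also higher in every mutant library, and the part of stromal RNA in their differences was not tested. In bulk samples, fewer cells of a type and less RNA per cell cannot be told apart.

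The sequences at the 3′ ends come first, since they bear on which of these genes poly-T selection can show. All 69 symbols were found in the GENCODE M21 transcripts of build GRCm38. The build named for the study is mm9, and the authors' gene models may have been others, so lengths and shared windows describe these transcripts only. The 16-base stem-loop of histone mRNA was searched on the sense strand by its consensus: complementary arms of 6 bases, the first starting with GG and ending in CT, around a loop of TTT and any base. Counting any transcript of a gene, it was present in 44 of the 67 protein-coding members (65.7%) and in 5 of 21810 other protein-coding genes (0.0229%). It is given in capitals with 5 flanking bases on each side, as DNA, for the 6 members that had a stem-loop and averaged at least 1 unit.
Hist1h4i: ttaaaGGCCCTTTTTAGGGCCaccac
Hist1h1c: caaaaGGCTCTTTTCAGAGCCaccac
Hist1h2bh: ccaaaGGCTCTTTTCAGAGCCactca
Hist3h2a: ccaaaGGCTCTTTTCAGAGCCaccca
Hist1h2bk: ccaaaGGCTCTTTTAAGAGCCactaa
Hist2h2aa2: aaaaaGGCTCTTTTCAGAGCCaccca

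The form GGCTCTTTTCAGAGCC was the most frequent, in 25 genes of classes H1, H2A, H2B and H3. The H4 genes carried other stems: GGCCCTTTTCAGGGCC in 7, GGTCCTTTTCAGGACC in 2, and the Hist1h4i form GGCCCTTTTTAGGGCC in 2, the other being Hist2h4. The longest annotated transcript ran over 100 bases past the stem-loop in 22 members and ended within 100 bases of it in 21. It held none in 26 members, whose models ran from 312 bases (Hist1h4k) to 2620 bases (Hist2h2be). Many of these models were short, such as those of Hist1h2bl (381 bases), Hist1h2ai (393) and Hist1h3h (411). Such models may end before the place of a stem-loop, so its absence there does not show that the gene lacks it.

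The poly(A) signal AATAAA lay in the last 50 bases of 14 of 67 protein-coding members (20.9%), against 65.9% of other protein-coding genes. Of the 14 members with it, 3 averaged at least 1 unit, and of the 55 without it, 5 did. The median levels were 0.241 and 0.186 units. Among those 5 were Hist1h4i, whose transcript holds no AATAAA, and Hist1h2bc, whose only AATAAA starts 447 bases before the end. The signal marks where cleavage and polyadenylation can occur. It is given in capitals, with 10 flanking bases on each side, for the 3 members that carried it there and averaged at least 1 unit.
Hist1h1c: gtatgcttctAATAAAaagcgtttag
Hist3h2a: gtatatgcccAATAAAataagagtac
Hist2h2be: tattattattAATAAAgttaccgatt

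Most clustered histone genes were near the floor of detection. Of the 69, 9 were listed at 0 in every library (Hist1h2ai, Hist1h2ao, Hist1h2ba, Hist1h2bn, Hist1h3f, Hist1h4a, Hist2h2ab, Hist2h3b and Hist2h3c1), 52 had a mean above 0 but below 1 unit, and 8 averaged at least 1 unit, the minimum for the test across genes. The median of the 69 means was 0.200 units. Just inside the minimum stood Hist2h2aa2 at 1.66 units, which reached it through its mutant values, and just outside it Hist2h2bb at 0.958. The median mean level of all 11837 genes tested was 12.4 units.

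Hist1h2bc, an H2B gene, held most of the signal. Its level was 36.8, 82.1 and 73.5 units in control replicates 1 to 3 and 77.3, 63.3 and 67.3 units in mutant replicates 1 to 3. It made up 54.1 ± 6.99% of the units of all members in the controls and 54.8 ± 3.26% in the mutants (mean ± SD, n = 3 each), and 89.0% of tested genes had a lower mean. The next highest, in units over all libraries, were the H1 gene Hist1h1c (10.4), the H2B gene Hist1h2bh (9.79), the H2A gene Hist3h2a (7.86) and the H2B gene Hist2h2be (3.60). The length by which the authors divided is not known. The steps between low values did not follow the annotated transcripts: they were 0.118 units for Hist1h1d (7425 bases) and 0.114 for Hist1h1b (743 bases). They were alike in the 6 H1 genes, from 0.114 to 0.129 units, and ran from 0.284 to 0.407 units in 6 H4 genes. Other classes spread more, from 0.0244 to 0.269 units in 9 H2A genes and from 0.0276 to 0.463 units in 9 H2B genes. In 3 H3 genes they ran from 0.151 to 0.260 units. These transcripts can therefore not be taken as the models behind the values, and levels of different genes are set side by side only as deposited.

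These 5 genes all have long annotated transcripts, which cannot be taken as the models behind their values. The steps of Hist1h2bh and Hist3h2a were 0.211 and 0.220 units, near the 0.222 units of Hist1h2ab, whose transcript has 473 bases. The step of Hist2h2be was smaller, at 0.0276 units. The transcript of Hist1h1c has 1560 bases and runs 840 past the stem-loop, that of Hist1h2bh has 1679 and runs 1214 past it, and that of Hist3h2a has 2146 and runs 1643 past it. Those of Hist2h2be (2620 bases) and Hist1h2bc (1156 bases in 2 exons) hold no stem-loop. Of 18 members with a transcript of at least 1000 bases, 5 reached a mean of 1 unit, and of 51 with a shorter one, 3 did (Hist1h4i, Hist1h2bk and Hist2h2aa2). The median levels were 0.466 and 0.136 units. Some long transcripts were low as well: Hist1h1d with 7425 bases had a mean of 0.310 units, and Hist2h3c1 with 1825 bases, none of whose 31-base windows is unique to it, was listed at 0. Many of the shorter transcripts share most of their windows with other genes, and the part of that sharing in their low levels was not tested. The split at 1000 bases was chosen after the values were seen. These are descriptions over genes, which are not replicates, by lengths that may not be those behind the values.

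**Figure D1:**
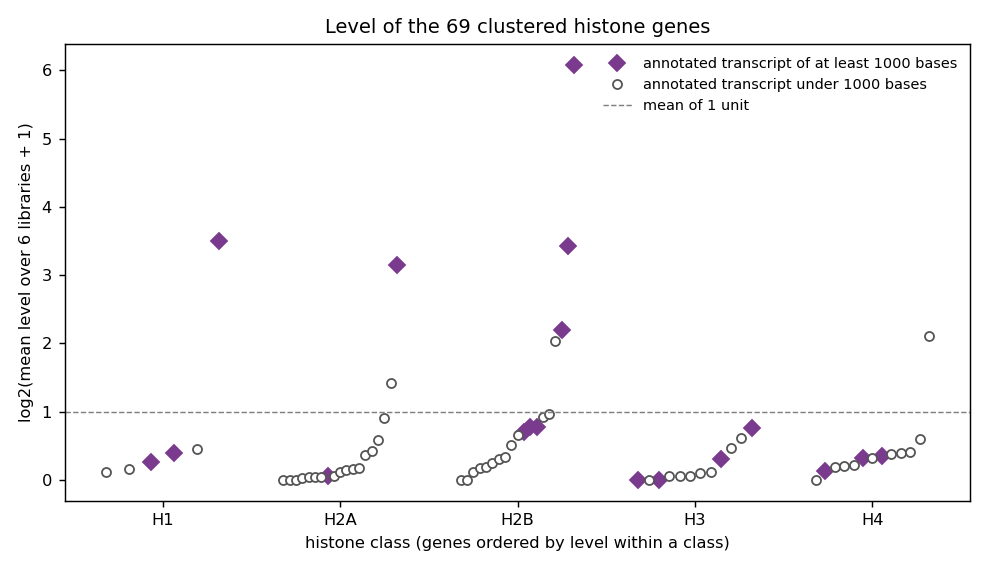
Mean level of each of the 69 clustered histone genes over the 6 libraries, as log2(mean + 1), by histone class; filled diamonds have an annotated transcript of at least 1000 bases, and the dashed line marks 1 unit. The 5 highest genes are filled diamonds, no H3 gene reaches 1 unit, and Hist1h4i, at a mean of 3.32 units, is the single H4 gene above it. The annotated lengths cannot be taken as those of the models behind the values.

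Across all genes, limma found 0 that rose and 2 that fell among 11837 (0.0169%) at an adjusted p under 0.05, and neither was a clustered histone gene. The 2 were Gm8580 and Gpx2-ps1, named after their values were seen. At an unadjusted p under 0.05, 559 genes were higher (4.72%) and 425 lower (3.59%). Of the 8 clustered genes tested, 0 passed at the adjusted threshold, and at the unadjusted one 3 were higher and 1 lower. The contrast had been used to pick the set, so nothing is read from those counts. By value, 5 were higher and 3 lower. Every mutant value lay above every control value in 2 of them (Hist1h4i and Hist2h2aa2, against 8.34% of all tested genes) and below in 1 (Hist3h2a, against 8.37%). The median log2 difference of the 8 was 0.48, or 0.21 without mutant replicate 3, and that of all tested genes was -0.02. The 8 include Hist1h4i, which chose the set, and Hist2h2aa2, which reached the minimum through its mutant values, and the other 6 had a median of -0.15. It was also -0.15 with a minimum of 5 units (4 members) and 0.035 without one (60 members), so nothing is read from its direction. Over all 69 genes, the mutant libraries lay above in 5 (also Hist2h2aa1, Hist1h2be and Hist1h2ab, against 6.39% of all 24930 rows) and below in 2 (also Hist1h2bj, against 5.03%). Hist1h2ab was at 0 in all controls and at 0.223, 0.164 and 0.251 units in mutant replicates 1 to 3. Each of these mutant values is a single step between low values.

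Hist1h4i encodes histone H4, the core histone that pairs with H3. Its level was 1.67, 0.973 and 1.41 units in control replicates 1 to 3 and 4.69, 5.18 and 6.03 units in mutant replicates 1 to 3. The lowest mutant value exceeded the highest control value. Means were 1.35 ± 0.351 units in the controls and 5.30 ± 0.677 units in the mutants (SD, n = 3 each), a ratio of 3.93 and a difference of 1.43 ± 0.18 (SE) on the log2(value + 1) scale. This is the value that chose the set. Leaving out any library kept it between 1.31 and 1.53, with 1.35 without mutant replicate 3. As a low gene it depended on the pseudocount, with 0.70 at a pseudocount of 5 and 1.92 at 0.1.

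The depth behind that difference is small. After scaling each library by its relative reads per unit, the values of Hist1h4i were whole multiples, to within 0.002 of a step, of 0.334 units: 5, 3 and 6 steps in the controls and 14, 21 and 16 in the mutants. If a step is 1 read, the gene rests on 14 reads in all control and 51 in all mutant libraries. The same held for 33 of the 37 members above 0 in at least 3 libraries. Reads not unique to a gene add a further uncertainty. Of the 697 windows of 31 bases in the Hist1h4i transcript, 64.4% occur in no other annotated gene, and 182 are shared with Hist1h4n, the gene that shares most with it. Over all members the median share of unique windows in these transcripts was 39.8%, and 5 members had none.

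The other 12 H4 genes stood at or below a mean of 0.516 units, the level of Hist1h4n. Their summed level was 1.65, 1.66 and 2.40 units in the controls and 4.26, 4.43 and 2.29 units in the mutants. Mutant replicates 1 and 2 lay above all controls, while mutant replicate 3 lay within the control range. With Hist1h4i the H4 sum was 3.25 ± 0.585 and 8.96 ± 0.645 units, without overlap, and Hist1h4i alone carried most of the separation. On chromosome 13 the protein-coding neighbours of Hist1h4i are Hist1h2bk on one side and Hist1h2ag on the other. Hist1h2bk had 2.94, 0 and 3.33 units in the controls and 1.82, 2.17 and 8.42 units in the mutants, with mutant replicate 3 alone above the controls, and Hist1h2ag was listed at 0 in 5 of 6 libraries.

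**Figure D2:**
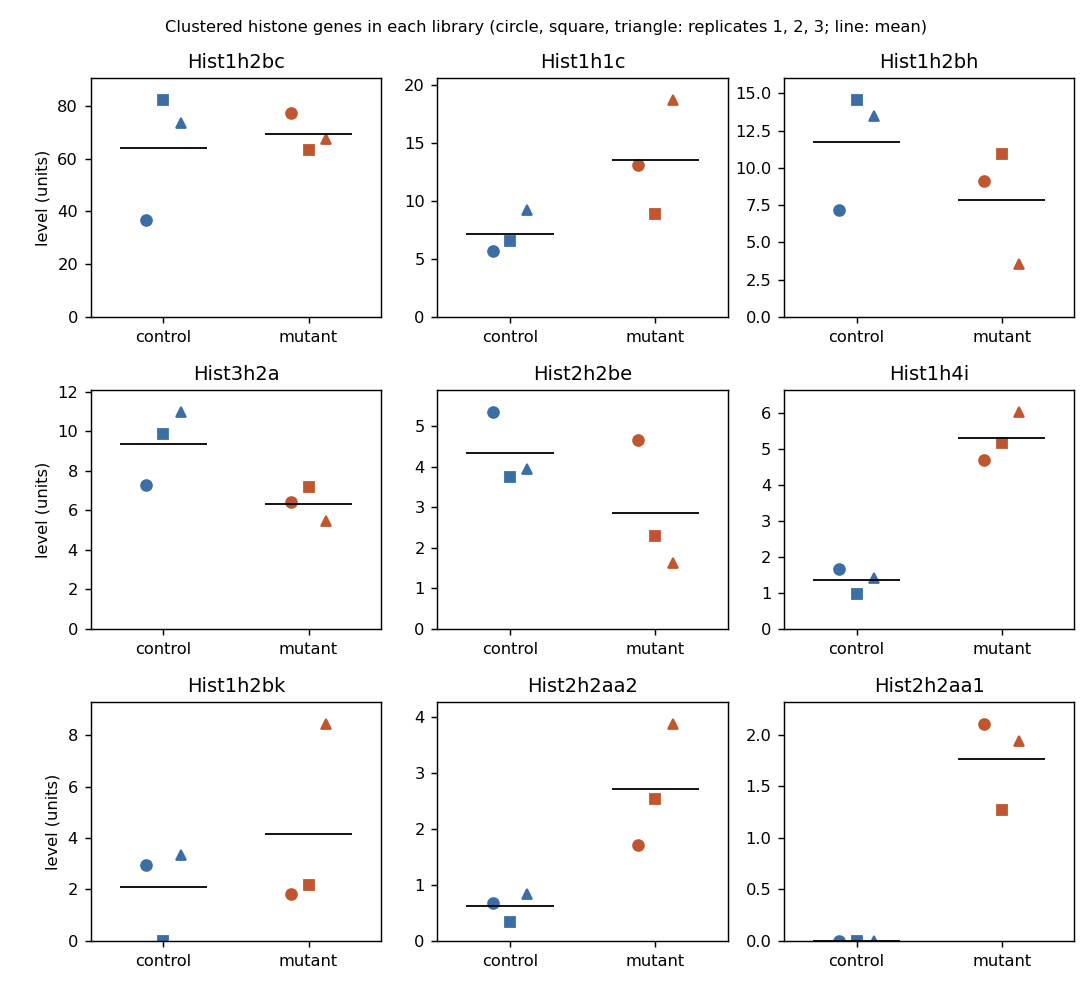
Level in units (vertical axes from 0, each on its own scale) of the 8 clustered histone genes tested and of Hist2h2aa1, in control and mutant libraries; each point is a library, its shape the replicate number, and the line the group mean. The groups separate for Hist1h4i, Hist2h2aa2 and Hist2h2aa1 (mutant above) and for Hist3h2a (mutant below), and overlap for the other 5.

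The H2A genes Hist2h2aa1 and Hist2h2aa2 also had every mutant library above every control library. Hist2h2aa2 had 0.686, 0.333 and 0.842 units in the controls and 1.72, 2.53 and 3.87 units in the mutants, a difference of 1.17 ± 0.26 (SE) on the log2(value + 1) scale (0.95 without mutant replicate 3). It was 0.45 with a pseudocount of 5, 1.96 with 0.1 and 0.79 with array weights, which weight libraries by their residual spread. Hist2h2aa1, chosen for description after its values were seen because it is a copy of Hist2h2aa2, was listed at 0 in all controls and had 2.10, 1.27 and 1.94 units in the mutants. All 498 windows of 31 bases in the Hist2h2aa2 transcript also occur in Gm20632, and all 556 in that of Hist2h2aa1 also occur in Gm20633. Reads can therefore not be assigned to 1 of these genes, and their split is uncertain. Hist2h2aa1 and Hist2h2aa2 summed to 0.620 ± 0.261 units in the controls and 4.48 ± 1.15 units in the mutants (SD, n = 3 each), without overlap. That sum leaves out Gm20632 and Gm20633, so it does not settle which gene gave the reads. In steps, Hist2h2aa2 had 4, 2 and 7 in the controls and 10, 20 and 20 in the mutants.

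Hist3h2a, an H2A gene of the small cluster on chromosome 11, went the other way. It had 7.27, 9.85 and 11.0 units in the controls and 6.41, 7.16 and 5.47 units in the mutants, so the highest mutant value lay just below the lowest control value. Its difference was -0.49 ± 0.18 (SE) on the log2(value + 1) scale, and -0.40 without mutant replicate 3. In its transcript, 679 of 2116 windows also occur in Trim17, and reads from those windows cannot be assigned to 1 of the genes. The sum over all 19 H2A genes was 12.0 ± 2.40 units in the controls and 12.4 ± 0.639 units in the mutants, and the means differed by less than either SD.

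The 4 H2B genes tested overlapped between the groups. Hist1h2bc had means of 64.1 ± 24.1 units in the controls and 69.3 ± 7.23 units in the mutants, with control replicate 1 lowest, and its log2 difference of 0.18 turned to -0.17 without that library. Hist1h2bh had 7.16, 14.5 and 13.5 units in the controls and 9.09, 10.9 and 3.57 units in the mutants, and its log2 difference went from -0.58 to -0.16 without mutant replicate 3. Hist2h2be had 5.35, 3.75 and 3.95 units in the controls and 4.65, 2.30 and 1.62 units in the mutants, and its log2 difference went from -0.54 to -0.30 without mutant replicate 3 and to -0.075 with array weights. Both were lowest in mutant replicate 3.

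For Hist1h2bk the log2 difference was 0.77 ± 0.68 (SE), and it was 0.09 without control replicate 2, the library at 0, and 0.22 without mutant replicate 3. Below the minimum, Hist1h2bj had 2.07, 1.44 and 1.25 units in the controls and 0, 0.656 and 0 units in the mutants, without overlap, on 18 steps in the controls and 3 in the mutants. Hist2h2bb had 0, 1.35 and 3.25 units in the controls and 0.465, 0.684 and 0 units in the mutants, with overlap. Hist1h2be, named after its values were seen, had 0.442, 0.258 and 0.310 units in the controls and 0.534, 1.70 and 0.487 units in the mutants, and mutant replicate 2 was the highest by far. Hist1h2bq and Hist1h2br held equal values in all 6 libraries, and 1973 windows of Hist1h2br occur in Hist1h2bq, so they are not separate observations, although the sums and medians over members hold both. The H2B genes other than Hist1h2bc summed to 26.0 ± 4.59 units in the controls and 19.0 ± 3.50 units in the mutants, and the groups overlapped.

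Hist1h1c encodes the linker histone H1.2 and was the H1 gene with the highest level. It had 5.69, 6.54 and 9.26 units in the controls and 13.1, 8.89 and 18.7 units in the mutants. Mutant replicate 2 lay below control replicate 3, so the groups overlapped. The difference was 0.80 ± 0.28 (SE) on the log2(value + 1) scale, or 0.56 without mutant replicate 3. It rests on more depth than Hist1h4i, at 44, 52 and 102 steps in the controls and 101, 93 and 128 in the mutants, and 88.6% of its windows are unique. Enterocyte marker scores were also high in mutant replicates 1 and 3 (1.04 and 1.70), at -0.58 to 0.80 in the other libraries, and their part in the level of Hist1h1c was not tested. The other 5 H1 genes had means of at most 0.366 units, the level of Hist1h1b.

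All 12 H3 genes stood below a mean of 1 unit, the highest being Hist2h3c2 at 0.696 units. Their sum was 1.48, 3.26 and 1.81 units in the controls and 2.07, 2.09 and 1.99 units in the mutants. The mutant values lay inside the control range. Summed over all 69 genes, the level was 116 ± 32.3 units in the controls and 126 ± 5.79 units in the mutants, also inside the control range. The set made up 0.0130 ± 0.00604% of all units in the controls and 0.0174 ± 0.00406% in the mutants. The total moved with Paneth cell markers, all 9 of which had the lower mean in the mutants (median log2 difference -1.07). They summed to 386880, 173375 and 104402 units in control replicates 1 to 3 and 38694 to 170691 units in the mutants. The groups overlapped, and the part of these markers in that share was not tested.

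**Figure D3:**
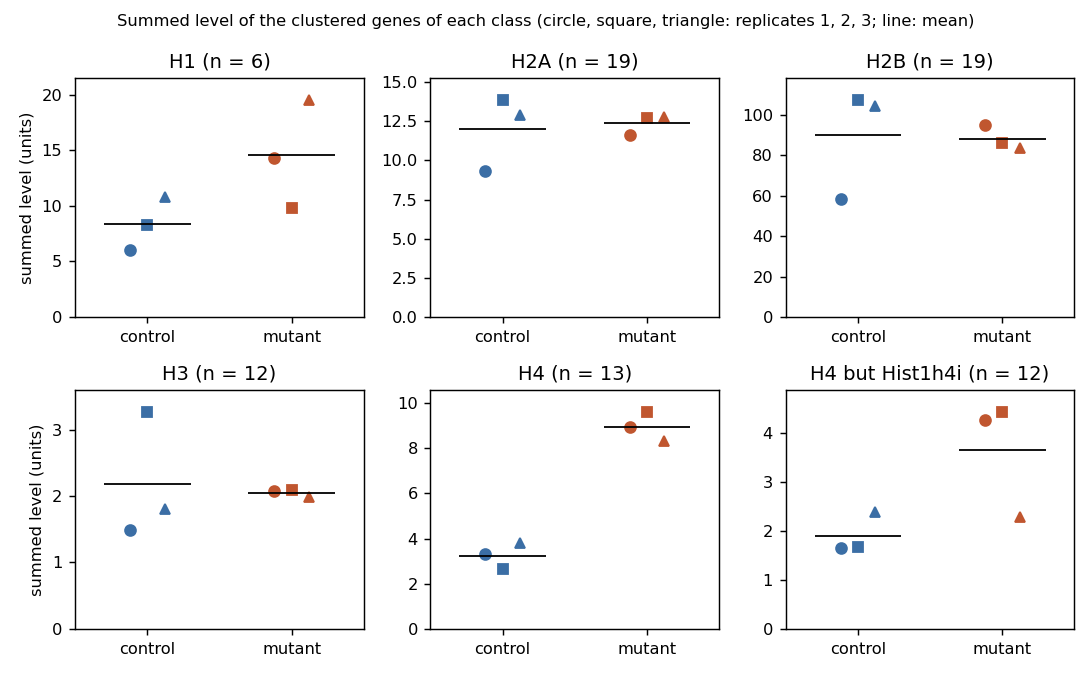
Summed level in units of the clustered histone genes of each class in each library (points, shaped by replicate number) with the group mean (line); axes start at 0 and differ in scale. The sums of H1, H2A, H2B and H3 overlap between the groups, that of H4 does not, and without Hist1h4i the H4 sums overlap as well.

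None of the histone genes outside the clusters passed the test, at an adjusted p under 0.05 in limma. Of 18 listed, 9 reached a mean of 1 unit and 6 were at 0 in every library (H1fnt, H1foo, H2afb1, H2afb2, H2afb3 and Hils1, several of them germ line variants). The 9 ran from 20.8 units for H2afj to 443 units for H3f3a, which encodes the replacement histone H3.3. The mean of H3f3a was 6.65 times that of Hist1h2bc, while H2afj, H2afx, Cenpa and H2afv (62.3 units) lay below Hist1h2bc (66.7 units). In limma 0 rose and 0 fell, 4 were higher and 5 lower by value, and the median log2 difference was -0.07, which turned to 0.07 without mutant replicate 3 and to 0.01 without control replicate 2. H2afv, a gene for the H2A.Z type of variant, had 62.5, 94.1 and 81.3 units in the controls and 55.2, 59.0 and 21.6 units in the mutants (adjusted p = 0.589 in limma). H2afj had 20.8, 10.9 and 20.0 units in the controls and 23.8, 26.6 and 22.6 units in the mutants (adjusted p = 0.589 in limma). The linker histone gene H1f0 had 147 ± 16.4 units in the controls and 118 ± 47.9 units in the mutants (adjusted p = 0.654 in limma), with mutant replicate 3 at 63.0. The log2 difference of H2afv went from -0.90 to -0.45, and that of H1f0 from -0.41 to -0.0058, without mutant replicate 3, and that of H2afj from 0.52 to 0.24 without control replicate 2.

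**Figure D4:**
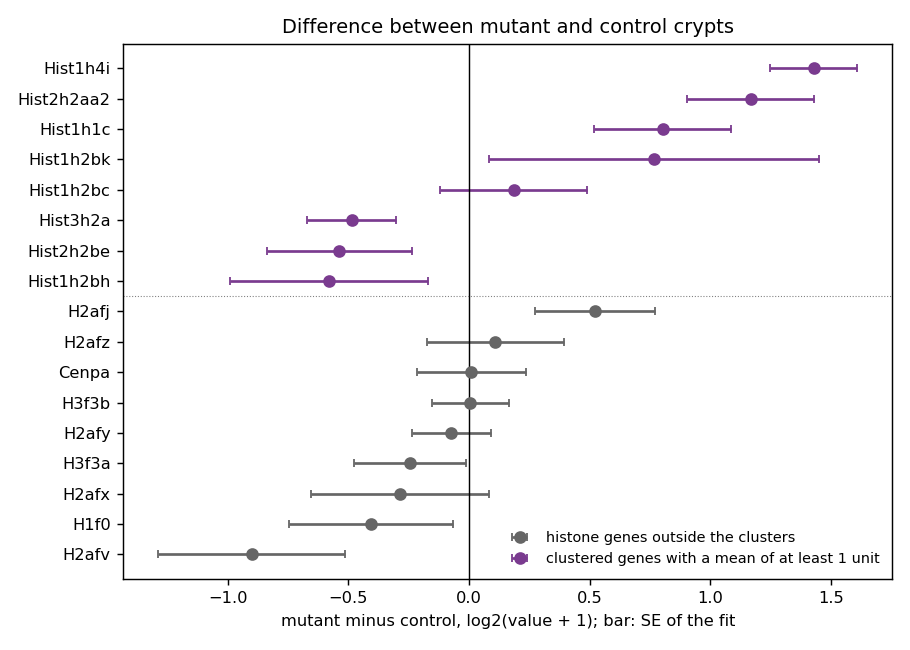
Difference between mutant and control libraries on the log2(value + 1) scale with the standard error of the fit (bars), for the 8 clustered genes tested and the 9 histone genes outside the clusters; 3 libraries in each group. The clustered genes run from -0.58 for Hist1h2bh to 1.43 for Hist1h4i, and the other genes from -0.90 for H2afv to 0.52 for H2afj.

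Genes that process histone mRNA or carry histones to chromatin, and genes of S phase, were read beside the clusters. Of 39 tested processing and chaperone genes, 0 rose and 0 fell in limma, with 11 higher and 28 lower by value and a median log2 difference of -0.08, or 0.07 without mutant replicate 3. Slbp, whose protein binds the stem-loop and which was named for that role, had 38.0, 43.1 and 33.9 units in the controls and 34.0, 39.7 and 27.9 units in the mutants, with overlap (adjusted p = 0.686 in limma). The 3 with the smallest p were Atrx and Daxx, which together deposit H3.3, and Casp8ap2, which takes part in histone mRNA 3′-end processing. Atrx had 18.5 ± 2.60 units in the controls and 13.5 ± 4.01 units in the mutants, and Casp8ap2 had 6.39 ± 0.786 and 4.88 ± 1.29 units (adjusted p = 0.589 and 0.590 in limma). Without mutant replicate 3 their log2 differences went from -0.46 to -0.20 and from -0.35 to -0.16. Daxx had 12.5 ± 0.587 and 20.0 ± 10.5 units (adjusted p = 0.591 in limma), with mutant replicate 3 at 32.2 and the other mutant libraries at 13.6 and 14.3, and its log2 difference went from 0.53 to 0.15 without that library. Of 34 tested S phase genes, 0 rose and 0 fell in limma, with 5 higher and 29 lower by value and a median log2 difference of -0.19. At an unadjusted p under 0.05, 1 of them, Rrm2, and 0 of the processing genes and of the histone genes outside the clusters were found. The S phase median was 0.03 without mutant replicate 3, the library with the lowest S phase score (-0.64, against -0.21 to 0.21 in the others). The ribonucleotide reductase gene Rrm2 was higher in every mutant library, at 24.5, 27.1 and 23.2 units in the controls and 28.4, 46.3 and 33.2 units in the mutants (adjusted p = 0.589 in limma). The thymidine kinase gene Tk1 had 57.6 ± 8.03 units in the controls and 39.4 ± 19.0 units in the mutants, and the DNA polymerase gene Pola1 had 8.33 ± 3.02 and 4.98 ± 2.55 units (adjusted p = 0.590 for each in limma). Without mutant replicate 3 their log2 differences went from -0.66 to -0.20 and from -0.71 to -0.29.

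Promoters were searched for motifs of histone genes and for a β-catenin related motif. RefSeq sequences of build GRCm38.p6 were found for 61 of the 69 genes, and 250 bases before each start site were searched on both strands. A member counted if any of its promoters held the motif, whereas the shares over all promoters count each promoter, members included. CCAAT was present in 50 of 61 members (82.0%) against 33.8% of all 32851 promoters, in all 6 H1, 17 H2A and 16 H2B genes but in 3 of 12 H4 genes. TATAAA was present in 29 of 61 (47.5%, against 12.4%). The octamer ATTTGCAT was present in 14 of 61 (23.0%, against 1.60%), 7 of them H2A and 7 H2B genes. Neighbours on opposite strands, such as Hist1h2ah and Hist1h2bk, could both count through 1 shared site. Whether they did was not checked, for this or the other motifs. CTTTGAT, a core of the TCF/LEF motif through which β-catenin acts, was present in 4 of 61 (6.56%, against 3.21%): Hist1h2ad, Hist1h2bf, Hist1h2bh and Hist3h2a. AAACACA, an element of H1 promoters, was present in 9 of 61 (14.8%, against 6.25%), 5 of them H1 genes. The promoters of Hist1h4i and, for contrast, Hist1h1c are shown with these 5 motifs in capitals, since Hist1h4i is the gene for which the set was picked and Hist1h1c had the highest level among members with a stem-loop. They lie at chr13:22041363-22041612 on the minus strand (Hist1h4i, H4c9 in RefSeq) and chr13:23738557-23738806 on the plus strand (Hist1h1c, H1f2 in RefSeq).
Hist1h4i: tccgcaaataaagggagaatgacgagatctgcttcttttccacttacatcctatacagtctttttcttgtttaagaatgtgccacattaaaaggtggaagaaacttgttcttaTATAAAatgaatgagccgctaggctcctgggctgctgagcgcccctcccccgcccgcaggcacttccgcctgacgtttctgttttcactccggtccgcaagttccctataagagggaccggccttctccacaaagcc
Hist1h1c: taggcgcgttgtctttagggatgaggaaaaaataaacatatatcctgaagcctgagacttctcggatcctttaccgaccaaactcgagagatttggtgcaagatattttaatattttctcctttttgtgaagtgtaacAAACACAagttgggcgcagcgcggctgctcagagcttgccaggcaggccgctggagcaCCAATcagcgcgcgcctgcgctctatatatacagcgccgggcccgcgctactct

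The Hist1h4i window held TATAAA 137 bases before the start and none of the other 4 motifs. The Hist1h1c window held CCAAT 54 bases and AAACACA 112 bases before the start. A match describes these letters and is not evidence of binding, and the windows without a match say nothing of the factor.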

How the data were processed

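RNA of crypt epithelium was poly-T selected and sequenced, per the labels' protocols. The authors deposited a normalized signal for every gene. The submitters' processing notes name kallisto 0.46.1, DESeq2 1.40.1 and build mm9 without role or order; the annotation and the normalization steps were not stated. Groups and replicate numbers came from the titles, and 0 value columns lacked a sample. Library depth is known only relatively, from whole steps among genes below 0.3 units, so no counting interval is given and no count test was run.

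Values were fitted as log2(value + 1) in limma 3.58.1 (R 4.3.3) for the 11837 genes averaging at least 1 unit. The model held the group alone, used a trended prior variance, and was adjusted by Benjamini-Hochberg with a threshold of 0.05. Standard errors come from it. Log2 differences understate changes of low genes. The fit was tested on simulated data. Alternatives were other scalings, filters and pseudocounts, array weights, a replicate block and leaving out each library. The members, lists and rules were chosen with earlier results of these data known. Named were Hist1h4i, the 10 members with the highest mean, up to 5 tested members with the largest difference in each direction, and the 3 genes of smallest p in each of 3 companion lists. Other genes were named for their role or after their values were seen. Steps are the coarsest unit giving whole multiples within 0.002. Windows are 31-base stretches of GENCODE M21 transcripts. Python 3.11.15 and pandas 2.3.3 were used.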

Additional observations from a re-analysis of the deposited data

How the results depend on the processing

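Depth limits these genes: Hist1h4i rests on 14 steps in the controls, and 61 members averaged below 1 unit. The log2 difference of Hist1h4i was 1.92 with a pseudocount of 0.1, 0.70 with one of 5, and 1.31 to 1.53 when each library was left out; with a minimum of 5 units it was not tested. With array weights, 27 genes passed in limma (20 rose, 7 fell), and Hist1h2bh went to -0.14 and Hist1h2bk to 0.0045 from -0.58 and 0.77. Among those passing was 1 of the 8 tested members, Hist1h4i, at 1.25. That gene chose the set, so nothing is read from its passing. Over all genes, 2 passed in the fit reported, 1 with upper-quartile scaling, 1 with a pseudocount of 5, and 0 with no filter (at an unadjusted p under 0.05 in limma, 882 were higher and 559 lower). Leaving out each library gave 0 to 4 genes: 4 without control replicate 2, 1 without control replicate 3 or mutant replicate 1, and 0 without mutant replicate 3 (unadjusted, 420 were higher and 312 lower). The median over members was 0.035 with no filter, -0.15 with a minimum of 5 units, and 0.21 to 0.65 when each library was left out. With the replicate block 0 genes passed (unadjusted, 874 were higher and 583 lower), while the median over members and Hist1h4i kept their values of 0.48 and 1.43. Same-numbered libraries did not all deviate together (correlations of -0.292, 0.333 and 0.325 for numbers 1 to 3), so the block pairs them by number only. Of the 8 tested members, 7 kept their direction under every alternative that gave them a value, and Hist1h2bc turned without control replicate 1. The cause of these shifts was not tested.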
